A study of Homo sapiens with 24 samples.

Results

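Immunoglobulin variable segments are the exon units from which a B cell builds the antigen-binding ends of its antibody chains. Of 330 gene symbols in the count table that start with IGHV, IGKV or IGLV, 185 had at least 1 count in any of 16 RNA sequencing libraries and are described here, out of 58676 gene IDs in all. They comprise 71 IGHV (heavy chain), 65 IGKV (kappa light chain) and 49 IGLV (lambda light chain) segments. RefSeq annotates 105 of them as V segments and 72 as pseudogenes, and 8 had no match there.

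The libraries come from 4 human lymphoma lines labelled U-2932, OCI-LY19, OCI-LY3 and SU-DHL-10, all described as diffuse large B-cell lymphoma and wild type. Each line was sampled before (0 h) and 8 h into treatment with TAK-981, an inhibitor of the SUMO-activating enzyme, with 2 replicates per time. For SU-DHL-10, named so in the labels, the series text has SU-DHL4, and the labels are followed here. The labels do not say whether replicates were separate cultures, so a p-value here covers the variation among these libraries alone, and that may be technical. Samples with vehicle for 8 h were not analysed here, so the effect of time in culture and of TAK-981 cannot be told apart. The study asked how blocking SUMO attachment alters B-cell lymphoma lines, and the comparisons below give the level of each V segment in each line and its change at 8 h.

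During B-cell development the RAG recombinase joins 1 V segment to J (and in the heavy chain D) segments, and the joined exon is spliced to a constant region. A clonal B-cell population therefore transcribes mainly the V segments of its productive heavy and light chains, from V promoters that carry an octamer motif bound by OCT2 (POU2F2) with its coactivator OBF1 (POU2AF1). Segments that have not been joined can also be transcribed, at low levels, and pseudogene segments cannot encode a working chain. A cell usually expresses either kappa or lambda, so the light chain locus in use is a standard marker of clonality in lymphoma.

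Each library held between 16770677 and 24694466 gene counts. B-cell markers were detected in each group, with mean levels of 505 to 1580 CPM (counts scaled to the library total) for MS4A1, 384 to 1020 for CD79A and 162 to 484 for PAX5. Plasma cell markers summed to between 1080 and 1650 CPM in U-2932 and between 350 and 631 CPM in the other lines. T and NK cell markers summed to between 2.09 and 18.8 CPM, with CD3D at 0 in every group. Monocyte markers summed to between 2.4 and 9.6 CPM. The epithelial and stromal list reached 71.9 to 174 CPM in OCI-LY3 and OCI-LY19, nearly all of it COL1A1, and 0.177 to 11.3 CPM in the other lines. Added spike-in RNAs took 0.0435% to 0.0823% of counts in SU-DHL-10 and OCI-LY3 but 0.3821% to 0.6201% in OCI-LY19 and U-2932. The part of COL1A1 in the results was not tested, and scaling by spike-in totals is given beside the results it changes.

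OCI-LY3 and OCI-LY19, by their labels, carried nearly the same V segments, which is stated before the results because it bears on every value over lines. Of 31 segments with at least 10 counts summed over the 4 OCI-LY3 libraries and 29 in OCI-LY19, 26 were shared, which is 83.87% of the first list and 89.66% of the second. The other pairs of lines shared 8 to 20, which is 20% to 68.97% of a list. The highest of these was the part of the OCI-LY19 list shared with U-2932, whose own list held 60 segments. The lists held 20 to 60 segments, which limits these percentages. The same overlap over all genes is not given. Several results over lines are therefore also given without each of these lines.

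V segments took a far larger part of the counts in U-2932 than in the other lines. In U-2932 they took 85375 and 85999 counts at 0 h, or 0.4957% and 0.4638% of gene counts, and 61939 and 63240 counts at 8 h, or 0.3027% and 0.2928%. In the other 3 lines all V segments together gave 614 to 1497 counts in a library. The heavy chain constant genes differed less between lines. At 0 h they took 1.474% of gene counts in U-2932 and 0.1652% to 0.1762% in the other lines. IGHV segments took 0.1014% and 0.0006488% to 0.0043%. How many V segment reads the counting left unassigned is not known, and its part in these values was not tested. In these bulk samples a smaller share of cells with a transcript and less of it per cell cannot be told apart either. The share was 0.006112% and 0.00669% in OCI-LY3 at 0 h and 0.00344% and 0.003341% at 8 h. In OCI-LY19 it was 0.008009% and 0.007872%, then 0.003236% and 0.003274%. SU-DHL-10 had 0.003913% and 0.002768% at 0 h and 0.002873% and 0.002869% at 8 h, so its groups overlapped, while in the other 3 lines both 8 h libraries were below both 0 h libraries. The mean changed by -37.93% in U-2932, -59.01% in OCI-LY19 and -47.03% in OCI-LY3.

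Averaged over lines, the share fell by 0.04753 percentage points at 8 h (two-sided exact permutation of times within lines, p = 0.00463, or 0.0231 adjusted over the 5 share tests made). Most of that value came from U-2932, and without it the difference was -0.002722 points (exact permutation p = 0.02778). That value combines OCI-LY3 (-0.003011 points), OCI-LY19 (-0.004685) and SU-DHL-10 (-0.0004693). It thus rests mainly on the lines with nearly the same segments. Values without OCI-LY3 or without OCI-LY19 are not given for this share. Within 1 line, 2 libraries against 2 cannot give a small exact p, so the lines were tested together. Clopper-Pearson intervals for 1 library cover counting error only. For the IGHV share they ran from 0.1016% to 0.1047% in the first U-2932 library at 0 h, and from 0.0005939% to 0.0008156% in the first SU-DHL-10 library.

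**Figure D1:**
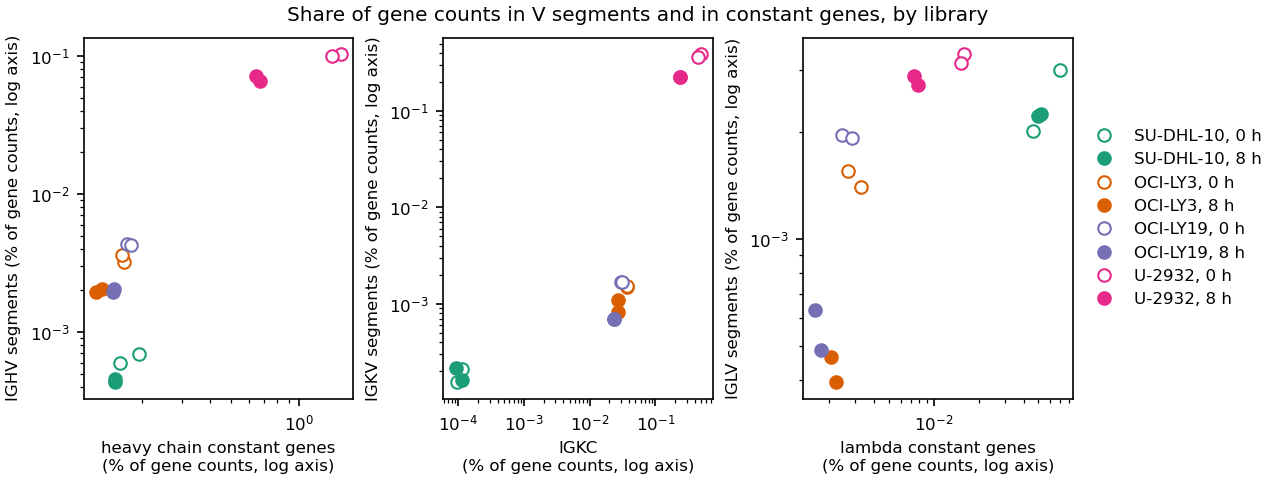
Share of gene counts in the V segments of a locus (vertical, percent, log axis) against the share in the constant genes of that locus (horizontal, percent, log axis), 1 point per library, open at 0 h and filled at 8 h. U-2932 lies apart at the top in IGHV and IGKV, SU-DHL-10 has IGKC near 0, and in the IGLV panel the 8 h libraries of OCI-LY3 and OCI-LY19 lie below their 0 h libraries.

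Most of the 185 segments were barely detected. In 129 no library reached 10 counts, 56 reached 10 counts in some library and 11 reached 100. Summed over the 4 libraries of a line, 107 stayed under 10 counts in every line, 35 reached 10 only in U-2932, and 8 reached 10 in all 4 lines. Those 8 were the pseudogene IGHV5-78, IGKV2D-29 and 6 lambda segments (IGLV1-51, IGLV11-55, IGLV4-60, IGLV5-52, IGLV6-57 and the pseudogene IGLVI-56). In U-2932 the number of segments with at least 1 count went from 73 and 79 at 0 h to 84 and 97 at 8 h. The V count itself was lower at 8 h there, but total gene counts were higher (17223675 and 18544122, then 20460870 and 21597926). Total gene counts were also higher at 8 h in OCI-LY3 and OCI-LY19, and the number of segments depends on depth. In OCI-LY3 the number of segments went from 64 and 63 to 41 and 44. For OCI-LY19 the numbers were 59 and 55, then 43 and 36. In SU-DHL-10 it was 36 and 31, then 27 and 33.

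**Figure D2:**
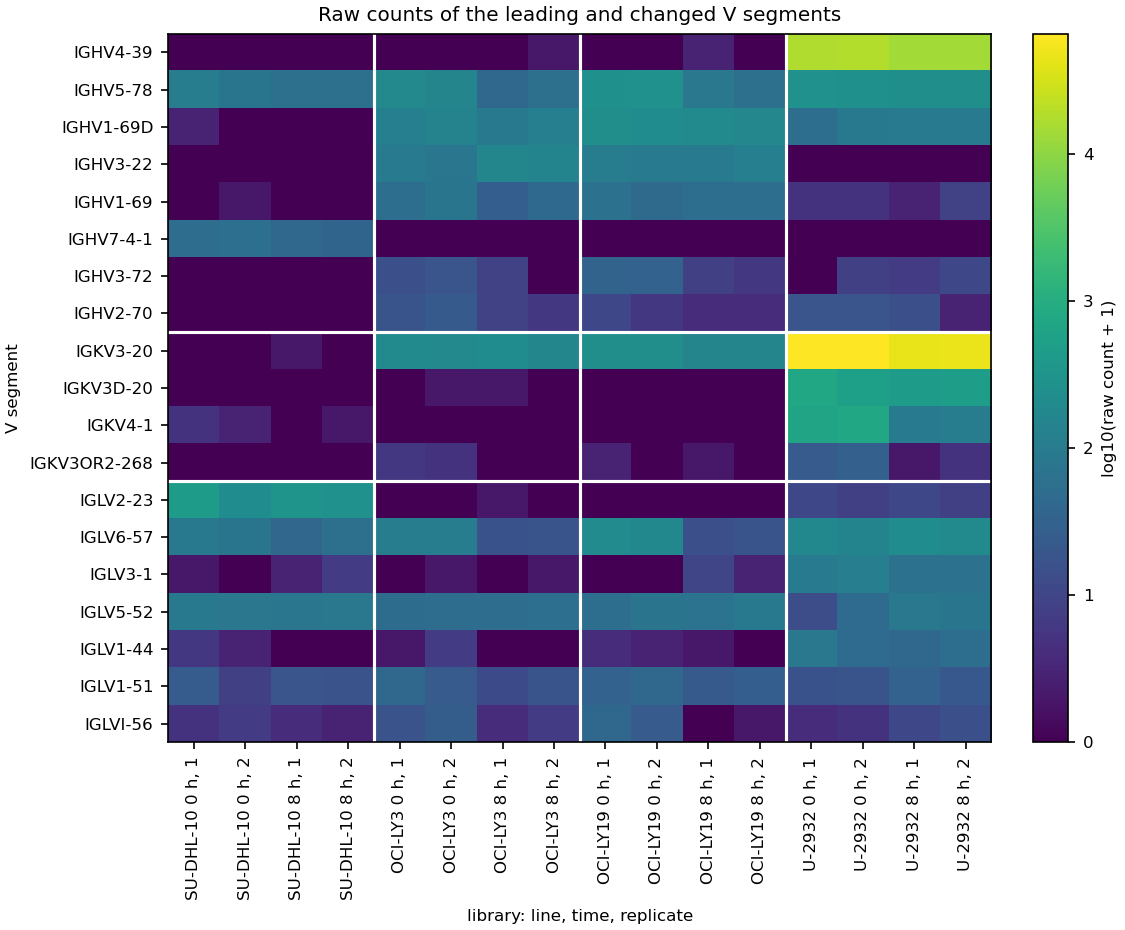
Raw counts, as log10(count + 1), of the V segments with at least 5% of their locus in a line or called changed at 8 h (rows), in each of the 16 libraries (columns, in blocks by line). IGHV4-39 and IGKV3-20 stand out in the 4 U-2932 libraries, IGHV7-4-1 and IGLV2-23 in SU-DHL-10, and IGHV3-22 is at 0 outside OCI-LY3 and OCI-LY19.

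U-2932 had 1 dominant segment in the heavy chain and 1 in the kappa locus. IGHV4-39, a functional heavy chain segment of the IGHV4 family, had 17342 and 18005 counts at 0 h and 14272 and 13818 at 8 h. It held 97.51% ± 0.179 of IGHV counts at 0 h and 96.72% ± 0.2186 at 8 h (SD, n = 2 here and for every mean below). Over the 12 libraries of the other lines, IGHV4-39 had 2 counts in OCI-LY19, 1 in OCI-LY3 and 0 in SU-DHL-10. Set against a floor of 3 counts over a group, its 0 h level in U-2932 was at least 14640-fold higher than in SU-DHL-10, at least 13441-fold higher than in OCI-LY19 and at least 11151-fold higher than in OCI-LY3.

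IGKV3-20, a functional kappa segment used often in human B cells, had 65300 and 65297 counts at 0 h in U-2932. At 8 h it had 45837 and 47443. These were 97.48% ± 0.1141 and 98.23% ± 0.1377 of IGKV counts. Its near-identical copy IGKV3D-20 took 0.9626% of the counts of the pair, and reads of the pair may have been split by the counting. IGLV segments made up 0.8548% ± 0.01243 of light chain V counts at 0 h and 1.225% ± 0.03842 at 8 h. They were spread over many segments, led by IGLV6-57 with 175 and 148 counts at 0 h and 215 and 203 at 8 h. The constant genes followed the same chains, with 250983 to 255264 counts of IGHM (mu heavy chain) and 81925 to 84989 of IGKC (kappa constant) at 0 h, against 2004 and 2067 of IGLC2 (lambda constant).

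In SU-DHL-10 the lambda locus gave most light chain V counts, 93.19% ± 0.3615 at 0 h and 92.23% ± 1.465 at 8 h. IGLV2-23, a functional lambda segment, led with 435 and 220 counts at 0 h and 313 and 267 at 8 h, or 56.41% ± 10.17 and 58.78% ± 5.586 of IGLV counts. Its replicates at 0 h differed widely, and the groups overlapped. In the other lines IGLV2-23 had 34 counts in U-2932, 0 in OCI-LY19 and 1 in OCI-LY3. IGLV5-52 (87 and 80 counts, then 76 and 83) and IGLV6-57 (89 and 73, then 38 and 60) came next. All IGKV segments together had 34 to 48 counts in a library, too few to name a leader.

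Only 3 or 4 IGHV segments had any count in a SU-DHL-10 library. The pseudogene IGHV5-78 had 105 and 75 counts at 0 h and 59 and 59 at 8 h, or 61.21% ± 6.821 and 60.26% ± 2.609 of IGHV counts. IGHV7-4-1, a functional segment, had 52 and 57 counts, then 40 and 34, and was at 0 in the 12 libraries of the other lines. Its 0 h level was at least 27-fold higher than in OCI-LY3, at least 33-fold higher than in OCI-LY19 and at least 29-fold higher than in U-2932, by the same floor. IGHG4, a gamma heavy chain constant gene, had 31654 to 41741 counts in these libraries, and IGLC2 had 10188 to 15930. For each 100 counts of heavy chain constant genes there were thus 0.285 to 0.3767 IGHV counts in SU-DHL-10, against 6.7 to 11.22 in U-2932, 1.315 to 2.546 in OCI-LY19 and 1.56 to 2.215 in OCI-LY3.

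OCI-LY3 and OCI-LY19 had no segment with most of the IGHV counts. With copies counted apart, the pseudogene IGHV5-78 led in both at 0 h. It had 184 and 157 counts in OCI-LY3 (28.5% ± 3.726) and 264 and 268 in OCI-LY19 (33.66% ± 1.682). IGHV1-69D, a functional segment, followed with 118 and 144 counts in OCI-LY3 (21.84% ± 2.657) and 241 and 216 in OCI-LY19 (28.87% ± 1.099). Its near-identical copy IGHV1-69 had 54 and 72 counts in OCI-LY3 and 65 and 45 in OCI-LY19, and the split of reads between these copies is uncertain. Summed, the copies had 172 and 216 counts in OCI-LY3 and 306 and 261 in OCI-LY19. That sum was above IGHV5-78 in the second OCI-LY3 and the first OCI-LY19 library and below it in the others. Which of them led at 0 h thus depends on how the copies are counted. The pseudogene IGHV3-22 had 96 and 76 counts in OCI-LY3 and 107 and 90 in OCI-LY19, and 0 in the 8 libraries of SU-DHL-10 and U-2932.

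At 8 h the order of single segments, with copies counted apart, changed in both of these lines. IGHV3-22 led in OCI-LY3 with 158 and 145 counts (34.99% ± 3.714), ahead of IGHV1-69D (89 and 121 counts, 24.1% ± 4.114) and IGHV5-78 (42 and 60 counts, 11.7% ± 2.399). IGHV1-69D led in OCI-LY19 with 195 and 171 counts (37.82% ± 1.021), ahead of IGHV3-22 (99 and 119 counts, 22.69% ± 4.418) and IGHV5-78 (85 and 60 counts, 14.91% ± 2.675). Summed, IGHV1-69 and IGHV1-69D had 115 and 164 counts at 8 h in OCI-LY3. In OCI-LY19 they had 250 and 226, above any single segment. The IGHV5-78 share was lower at 8 h than at 0 h in every library of these lines.

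IGKV3-20 led the kappa locus in OCI-LY3 and OCI-LY19 as it did in U-2932. It had 197 and 187 counts at 0 h and 216 and 163 at 8 h in OCI-LY3, and 240 and 236, then 151 and 153 in OCI-LY19. In OCI-LY3 its share of IGKV counts was 72.63% ± 1.404 at 0 h and 92.26% ± 0.4941 at 8 h, and in OCI-LY19 it was 76.42% ± 1 and 90.29% ± 4.249, with no overlap between times. Over these 2 lines and U-2932 the share rose by 11.42 points on average (two-sided exact permutation, p = 0.009259, adjusted 0.0231). With any 1 of the 3 lines left out the mean difference was 7.31 to 16.75 points, and its exact p of 0.05556 is the smallest that 2 lines allow. In OCI-LY3 the counts of IGKV3-20 itself overlapped between times, and the other IGKV segments had fewer counts at 8 h. IGKV3-20 had 1 count in the 4 SU-DHL-10 libraries.

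**Figure D3:**
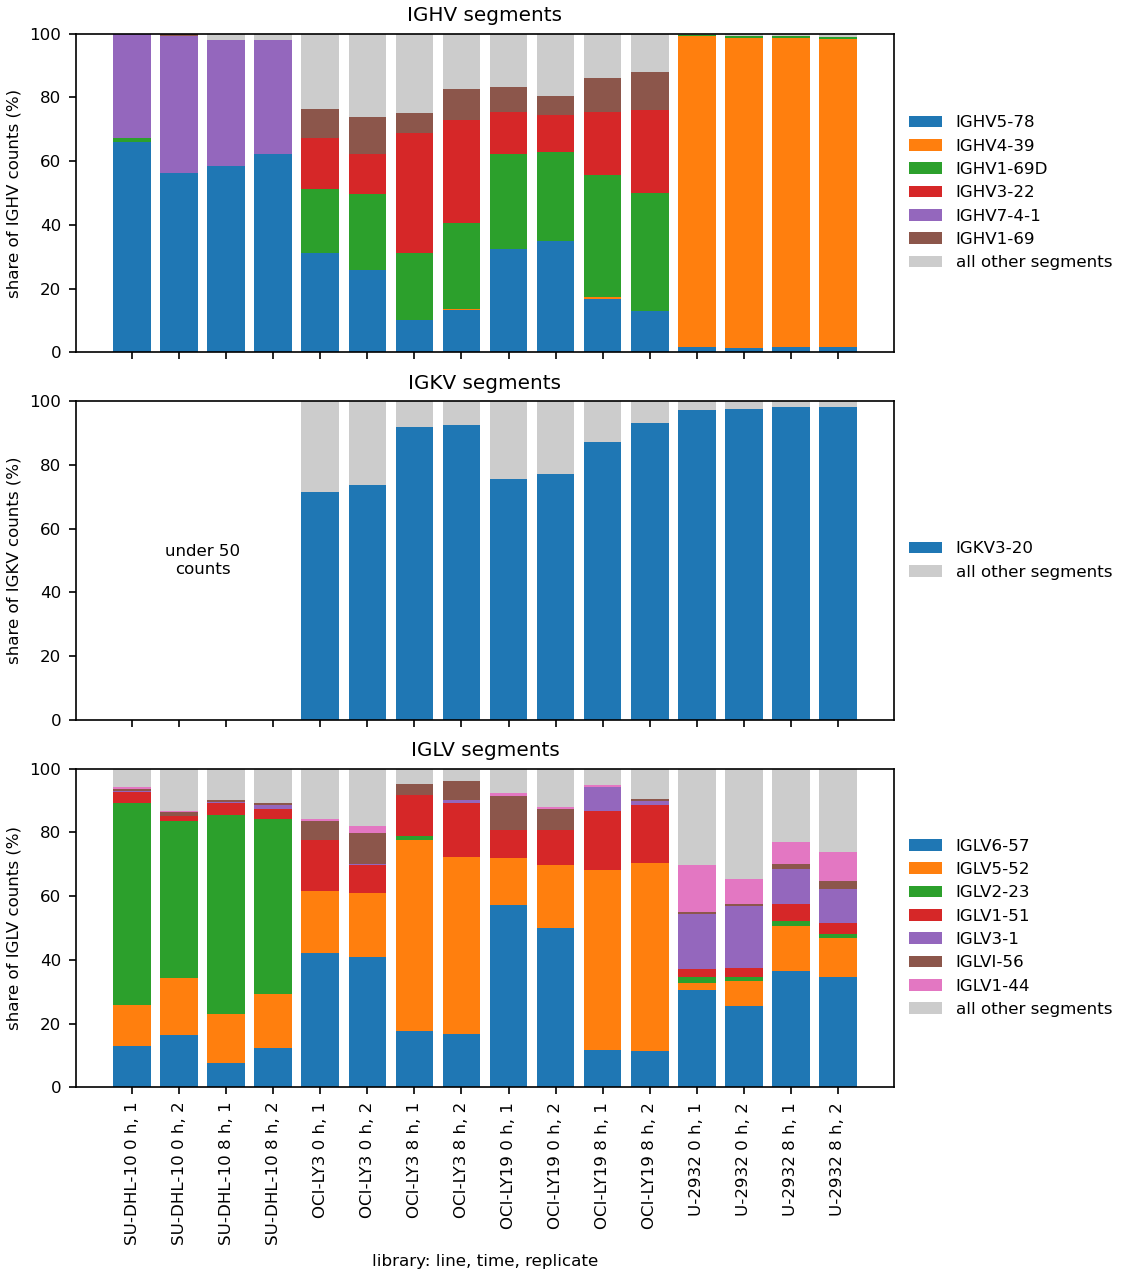
Share of IGHV (top), IGKV (middle) and IGLV (bottom) counts held by each leading segment in each of the 16 libraries, in percent, with the remaining segments in grey. U-2932 is filled by IGHV4-39 and IGKV3-20, SU-DHL-10 by IGHV5-78, IGHV7-4-1 and IGLV2-23, and in OCI-LY3 and OCI-LY19 the IGLV6-57 share was smaller and the IGLV5-52 share larger at 8 h than at 0 h.

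The lambda locus of OCI-LY3 and OCI-LY19 also changed its leading segment. IGLV6-57, a functional lambda segment, held 41.62% ± 0.8852 of IGLV counts at 0 h and 17.24% ± 0.5766 at 8 h in OCI-LY3, and 53.54% ± 5.207 and 11.54% ± 0.1819 in OCI-LY19. IGLV5-52 held 19.65% ± 0.3843 and 57.72% ± 3.22 in OCI-LY3, and 17.24% ± 3.576 and 57.86% ± 1.693 in OCI-LY19. The counts of IGLV5-52 were nearly level, with 50 and 52, then 51 and 56 in OCI-LY3, and 54 and 69, then 68 and 88 in OCI-LY19, while those of IGLV6-57 dropped, as given below.

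Lambda segments made up 49.54% ± 1.608 of light chain V counts in OCI-LY3 at 0 h and 31.51% ± 7 at 8 h, and 53.47% ± 0.2634 and 44.28% ± 4.701 in OCI-LY19. Averaged over the 4 lines the lambda share fell by 6.95 points (two-sided exact permutation, p = 0.02623, adjusted 0.0328). The difference was -3.257 points without OCI-LY3 and -6.204 without OCI-LY19, with an exact p of 0.1574 in each case, and -8.95 without SU-DHL-10 (exact p = 0.05556). The constant genes were less even than the V segments in these lines, with 5478 to 6777 counts of IGKC against 243 to 402 of IGLC2 in a library.

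The segment that led at 0 h was chosen in the same 0 h libraries that 8 h is compared with, which favours a lower share at 8 h, so the differences are given for the heavy chain and lambda loci without a test. In the heavy chain locus the mean difference over lines was -9.326 points, or 3.778 with pseudogenes and unmatched segments left out, where other segments led at 0 h. In the lambda locus it was -14.12 points. The RefSeq gene length of the leading segments was 435 to 535 bases. With copies counted apart, dividing counts by length kept the lead in 11 of 11 combinations of line and locus with at least 50 counts.

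The likeness of OCI-LY3 and OCI-LY19 extended to the relative amounts. The overlap of the IGHV profiles, the sum over segments of the smaller of the 2 shares, was 80.82% at the median between a library of OCI-LY3 and one of OCI-LY19 at the same time (67.19% to 83.94% over 8 library pairs). Replicates of 1 group overlapped by 81.8% to 99.64%, and libraries of other line pairs by at most 36.11%. For IGLV the median overlap of OCI-LY3 and OCI-LY19 at the same time was 84.93%, against 78.68% to 90.87% between replicates and at most 44.2% for other line pairs at the same time. Between 0 h of one line and 8 h of another it was 42% to 56.69% for OCI-LY3 with OCI-LY19 and reached 63.01% for other pairs. For IGKV the median at the same time was 89.14%, and other pairs reached 93.37% there, with IGKV3-20 in the lead in U-2932 as well.

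Of the segments with at least 10 summed counts in OCI-LY3 and in OCI-LY19, 6 heavy chain segments were at 0 in both other lines. These were IGHV3-22 (475 and 415 counts), IGHV4-31 (96 and 63), IGHV1-3 (62 and 17), IGHV3-30 (30 and 38), IGHV3-23 (24 and 15) and IGHV1-24 (13 and 10). No segment with at least 10 counts in OCI-LY19 was at 0 in OCI-LY3, and 1 was the other way round. Such segments numbered 4 to 33 in each direction for the other pairs of lines. The same numbers over all genes are not given, so these are a description.

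**Figure D4:**
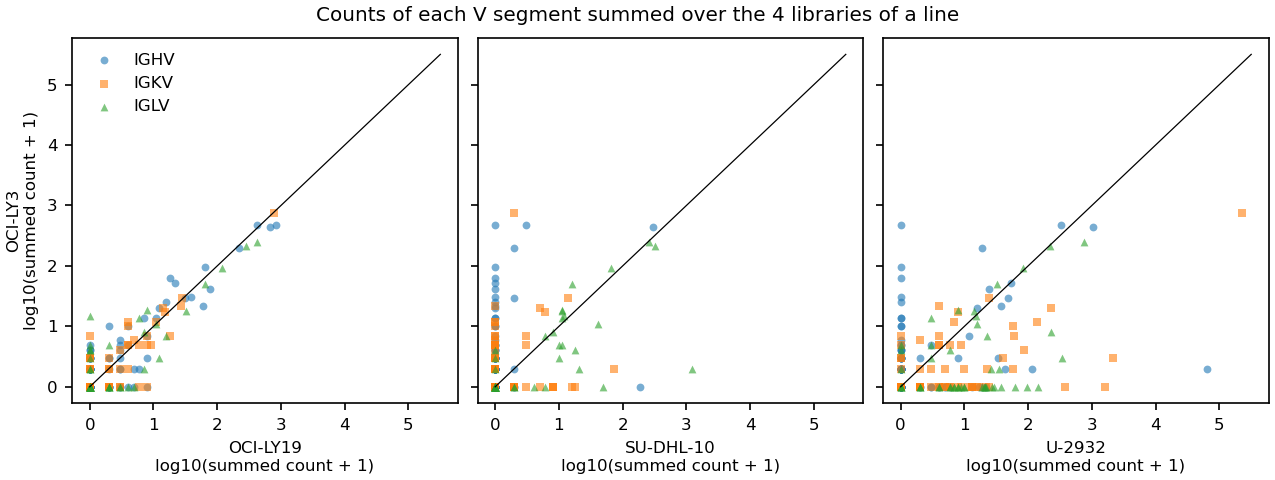
Counts of each of the 185 V segments summed over the 4 libraries of a line, as log10(count + 1), in OCI-LY3 (vertical) against OCI-LY19, SU-DHL-10 and U-2932 (horizontal), with the line of equal counts. Against OCI-LY19 the segments lie along that line, and against the other lines many lie on an axis, at 0 in 1 line.

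Levels at 0 h were also compared gene by gene with edgeR's quasi-likelihood test, adjusted over all 17327 tested genes (Benjamini-Hochberg, 0.05). A filter on low counts kept 47 of the 185 segments (17 IGHV, 14 IGKV and 16 IGLV), many of them through the line where they were high, so the counts below are a description. OCI-LY19 against OCI-LY3 had 3 called segments of 47, where 39.4% of all tested genes were called, 18% as higher and 21.4% as lower. IGLV6-57 was higher in OCI-LY19 by 0.56 ± 0.20 on the log2 scale (SE; adjusted p = 0.02616), IGHV1-69D was higher by 0.52 ± 0.21 (adjusted p = 0.04331), and IGHV1-3 was lower, at -2.07 ± 0.77 (adjusted p = 0.0327). At an unadjusted p under 0.05 edgeR had 6 segments, and the share of all genes under that limit is not given. DESeq2 called 0 of the 47, and scaling by spike-in totals, which moved the median of all genes to -2.65 (log2) between these lines, called 0 higher and 27 lower.

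The other 5 pairs had 26 to 38 called segments of 47. OCI-LY3 against SU-DHL-10 had 22 higher and 6 lower, where 57.2% of all genes were called, 29% as higher and 28.1% as lower. OCI-LY19 against SU-DHL-10 had 20 higher and 6 lower, where 63.8% were called, 32.6% as higher and 31.2% as lower. U-2932 against SU-DHL-10 had 29 higher and 4 lower (68.7% called, 36.5% higher and 32.2% lower). U-2932 against OCI-LY3 had 24 higher and 14 lower (69.3% called, 36.2% higher and 33.2% lower), and U-2932 against OCI-LY19 had 21 higher and 12 lower (70.6% called, 37% higher and 33.6% lower). The shares of members called in either direction were 55.3% to 80.9% in these pairs, and nothing is read from the splits, since segments passed the filter through the line where they were high. Spike-in scaling moved the all-gene median by -0.21 to -3.51 over the pairs. With it the split of higher and lower calls went from 20 and 6 to 7 and 14 for OCI-LY19 against SU-DHL-10, from 29 and 4 to 15 and 14 for U-2932 against SU-DHL-10, and from 24 and 14 to 9 and 21 for U-2932 against OCI-LY3. Relative to the bulk of genes IGHV5-78 was higher than in SU-DHL-10 by 1.87 ± 0.18 in U-2932, 1.69 ± 0.18 in OCI-LY19 and 1.31 ± 0.19 in OCI-LY3 (log2, adjusted p = 5.326e-11, 7.125e-10 and 3.309e-07), where the spike-in shift of the all-gene median was -3.51, -3.27 and -0.61.

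At 8 h, calls among V segments were nearly all decreases. The filter could keep a segment through a single group where it was high, at 0 h or at 8 h. The split of rises and falls and the medians below are therefore a description. Called segments made up 2.13% of those tested for SU-DHL-10, 19.1% for U-2932 and 25.5% for each of the other lines. In no line was this above the share of all genes called, given next. In SU-DHL-10, 0 segments rose and 1 fell, where 12.6% of all tested genes changed, 6.3% up and 6.27% down. In OCI-LY3, 0 rose and 12 fell, where 25.5% of all genes changed, 13% up and 12.5% down. OCI-LY19 had 1 that rose and 11 that fell (39.4% of all genes changed, 21.6% up and 17.8% down). U-2932 had 1 that rose and 8 that fell (50.9% changed, 25.9% up and 25% down). The median log2 change of the tested segments was -0.20 in U-2932, -0.97 in OCI-LY19, -1.24 in OCI-LY3 and 0 in SU-DHL-10, and that of all tested genes was 0 in each line. At an unadjusted p under 0.05 edgeR had 13 segments in U-2932, 15 in OCI-LY19, 17 in OCI-LY3 and 4 in SU-DHL-10. The share of all genes under that limit is not given, so nothing is read from these counts. Every change is given against the typical gene. Scaling by spike-in totals moved the all-gene median to 0.70 in U-2932, 0 in OCI-LY19, 0.20 in OCI-LY3, 0.11 in SU-DHL-10 and 0.28 across lines. With it 4 segments rose and 2 fell in U-2932, and 1 rose and 9 fell in OCI-LY3. With TMM scaling, 4 segments were called in U-2932 without its first 0 h library, and in OCI-LY3 4 without its second 0 h library and 6 without its first 8 h library. DESeq2 called 5 in OCI-LY3 and 7 in OCI-LY19.

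The 2 segments with the most counts in U-2932 fell against the typical gene but not with spike-in scaling. IGHV4-39 had a mean of 993.8 ± 40.38 CPM at 0 h and 622.5 ± 29.31 at 8 h, a log2 change of -0.67 ± 0.07 (SE; adjusted p = 1.091e-09). IGKV3-20 went from 3675 ± 246.8 to 2066 ± 0.2094 CPM, at -0.83 ± 0.07 (adjusted p = 2.886e-12). Both 8 h libraries lay below both 0 h libraries for each segment. With spike-in scaling the changes were 0.05 and -0.10 and passed no threshold (adjusted p = 0.8245 and 0.5868). IGKV3D-20, the copy of IGKV3-20, had 735 and 513 counts, then 432 and 496, a change of -0.78 ± 0.18 (adjusted p = 0.0005347) that was -0.05 with spike-in scaling.

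IGKV4-1 fell more steeply in U-2932 than the other abundant segments. This functional kappa segment is the V segment next to the joining segments in the RefSeq order, between IGKJ1 and IGKV5-2. It had 651 and 729 counts at 0 h and 92 and 107 at 8 h, a log2 change of -3.13 ± 0.19 (adjusted p = 3.455e-14), and remained lower under 12 of 12 alternatives tried, from -3.22 to -2.41. It had 0 counts in OCI-LY3 and OCI-LY19. Its neighbour IGKV5-2 had 113 and 97 counts, then 80 and 85, with a change of -0.70 ± 0.33 that did not pass the threshold (adjusted p = 0.0822). Where the counting used no strand, reads of overlapping transcripts cannot be told apart from those of a segment.

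The other calls in U-2932 were in segments with far fewer counts than IGHV4-39 or IGKV3-20. With spike-in scaling IGKV4-1 and IGKV3OR2-268 were the 2 segments that fell there, and the other falls were not called. IGKV3OR2-268, a kappa orphon (a V segment copy outside its locus), had 23 and 29 counts, then 1 and 4 (-3.65 ± 0.84, adjusted p = 0.000497). IGLV3-1, next to the lambda joining and constant genes, had 98 and 112, then 65 and 63 (-1.05 ± 0.37, adjusted p = 0.01856). IGLV5-52 rose from 13 and 47 counts to 84 and 72 (1.05 ± 0.33, adjusted p = 0.00832), the 1 segment called higher in this line, though its 0 h replicates were far apart. Its change was 0.46 to 2.17 over 12 alternatives, and 2 of them lost the call, at 0.46 without the first 0 h library (adjusted p = 0.2681) and 0.91 without the first 8 h library (adjusted p = 0.07194). IGHV5-51 and IGHV5-78 were also called lower with TMM scaling, IGHV5-78 from 268 and 263 counts to 246 and 252 (-0.44 ± 0.16, adjusted p = 0.02598). IGLV6-57 gave a change of 0.02 ± 0.19 (adjusted p = 0.9446) in U-2932.

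In OCI-LY3 and OCI-LY19 the steepest falls of well-counted segments were in IGLV6-57 and IGHV5-78. IGLV6-57 had 109 and 107 counts at 0 h and 15 and 17 at 8 h in OCI-LY3, a log2 change of -3.01 ± 0.28 (adjusted p = 2.677e-10). In OCI-LY19 it had 210 and 174, then 14 and 17, at -3.77 ± 0.27 (adjusted p = 1.544e-13). The groups were far apart in both lines, with every 8 h library under every 0 h library. In SU-DHL-10 it had 89 and 73, then 38 and 60, at -0.76 ± 0.24 (adjusted p = 0.0353), the only call in that line, which was lost in 5 of 12 alternatives.

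IGHV5-78 fell by 2.00 ± 0.21 on the log2 scale in OCI-LY3 (adjusted p = 2.122e-09) and by 2.03 ± 0.19 in OCI-LY19 (adjusted p = 9.517e-11), from the counts given above. In SU-DHL-10 its change of -0.64 ± 0.22 just missed the threshold (adjusted p = 0.05029). IGLVI-56, a pseudogene, and IGLV11-55 follow IGLV6-57 in the RefSeq order. IGLVI-56 had 16 and 25 counts, then 3 and 6 in OCI-LY3 (-2.43 ± 0.67, adjusted p = 0.00601). In OCI-LY19 it had 40 and 23, then 0 and 1, a ratio of 82.8 with a 95% counting interval of 14.3 to 3320 (adjusted p = 3.581e-06). IGLV11-55 had 17 counts over both OCI-LY3 libraries at 0 h and 0 at 8 h, at least 6.9-fold lower (adjusted p = 0.006847), and 28 and 3 in OCI-LY19, a ratio of 12.3 with an interval of 3.79 to 63 (adjusted p = 0.01329). In U-2932 IGLVI-56 had 3 and 4 counts at 0 h and 10 and 14 at 8 h, which did not pass the threshold (adjusted p = 0.118).

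IGKV3-20 fell in OCI-LY19 by 0.80 ± 0.12 (log2, adjusted p = 1.231e-06), and its change in OCI-LY3 was -0.28 ± 0.12 (adjusted p = 0.07956). IGHV3-72 fell in OCI-LY19, from 33 and 31 counts to 7 and 5 (-2.54 ± 0.77, adjusted p = 0.00811). In OCI-LY3 the calls included IGHV1-69 (-1.14 ± 0.38, adjusted p = 0.02388), its copy IGHV1-69D (-0.59 ± 0.22, adjusted p = 0.04853) and IGLV1-51 (41 and 23 counts, then 11 and 17; -1.44 ± 0.48, adjusted p = 0.02365). The calls of IGHV1-69 and IGLV1-51 were each lost in 4 of 12 alternatives (adjusted p up to 0.2462 and 0.2419), namely spike-in scaling, DESeq2 and leaving out 1 library of OCI-LY3 (the second at 0 h for IGHV1-69, the first at 0 h for IGLV1-51, and the first at 8 h for either). Summed over both copies, IGHV1-69 and IGHV1-69D had 172 and 216 counts at 0 h and 115 and 164 at 8 h in OCI-LY3. IGHV3-22 did not pass the threshold in either line, with a change of 0.56 ± 0.25 in OCI-LY3 (adjusted p = 0.1007) and -0.01 ± 0.25 in OCI-LY19. The remaining calls in these lines rested on few counts, and of 13 calls with 3 counts or fewer at one time, IGLV3-1 in OCI-LY19 (0 and 0 counts, then 9 and 2) was the 1 higher.

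**Figure D5:**
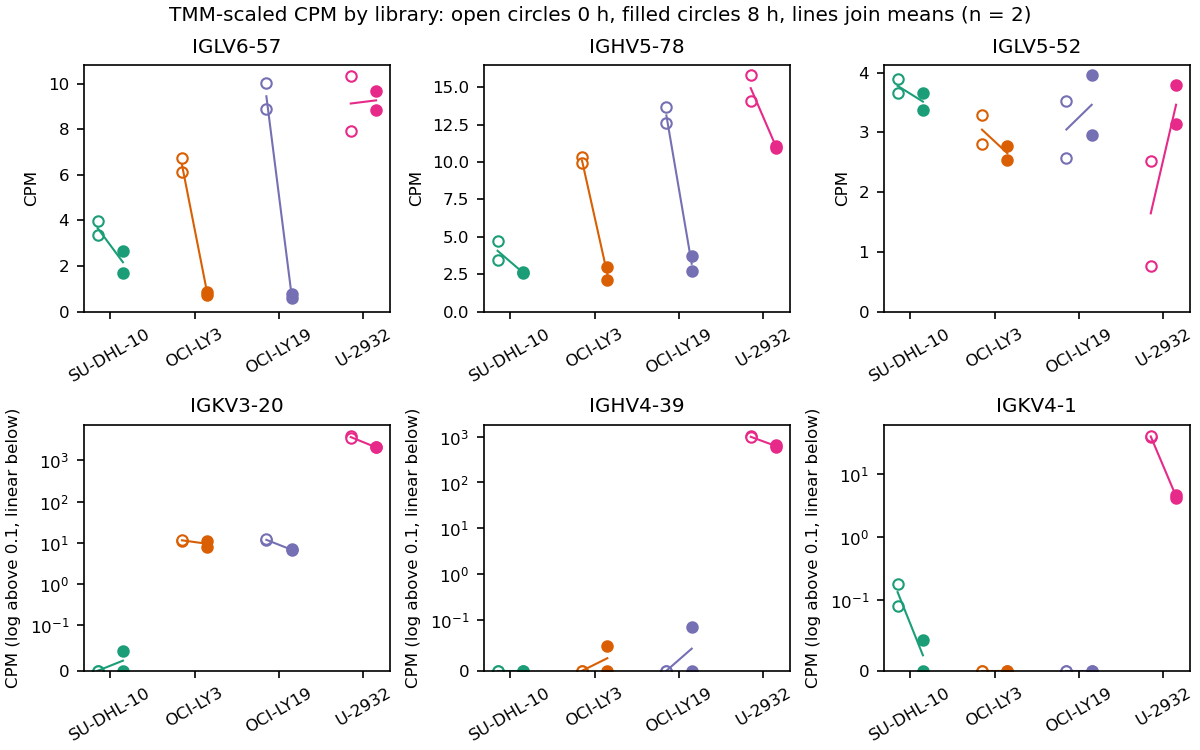
CPM of 6 segments in each library, open circles at 0 h and filled at 8 h, with lines between the means of 2 replicates, and a vertical axis that is logarithmic above 0.1 CPM in the lower row. IGLV6-57 and IGHV5-78 were lower at 8 h in OCI-LY3 and OCI-LY19, IGLV5-52 was higher in U-2932 alone among the calls, and IGHV4-39 and IGKV4-1 were at or near 0 outside U-2932.

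Across lines, with line as a term in the model, 0 segments rose and 7 fell, where 18.1% of all genes changed, 10% up and 8.09% down. These calls were 14.9% of the tested segments, and the filter limits their split in the same way. IGHV5-78 changed by -1.26 ± 0.22 (adjusted p = 0.001209), and the change stayed below 0 and called without any 1 line (-1.59 to -0.99). Its call was lost in 1 of 30 alternatives (adjusted p up to 0.05081), with changes of -1.59 to -0.98 over all of them. IGKV3-20 changed by -0.64 ± 0.12 (adjusted p = 0.001597), and by -0.30 with spike-in scaling, not called (adjusted p = 0.1392). Over the 4 lines IGLV6-57 changed by -1.69 ± 0.42 (adjusted p = 0.01225), and by -1.29 without OCI-LY3 and -1.05 without OCI-LY19, no longer called (adjusted p = 0.117 and 0.07102). IGKV4-1 and IGKV3OR2-268 were called across lines from counts that were mostly those of U-2932. IGLV1-44 and IGHV2-70 were the remaining calls (adjusted p = 0.04202 and 0.01915). The call of IGLV1-44 was lost in 19 of 28 alternatives, and that of IGHV2-70 in 5 of 30, among them without OCI-LY3 (adjusted p = 0.1438) and without OCI-LY19 (adjusted p = 0.05439). The lines with low spike-in shares alone called 5 segments and those with high shares 3. The share of all genes called in these subsets is not given, so nothing is read from these counts.

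The change at 8 h differed between lines in 8 of the 47 segments (3 degrees of freedom), where 53.5% of all tested genes differed. The smallest adjusted p was that of IGLV6-57 (1.99e-11), followed by IGHV5-78 (7.676e-07).

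Of 12 tested constant genes, onto which V segments are spliced, 0 rose and 7 fell across lines, where 8.09% of all genes fell. In U-2932 11 fell, with a list median of -1.54, where 25% of all genes fell. In OCI-LY19 0 rose and 4 fell, in OCI-LY3 0 rose and 6 fell, and in SU-DHL-10 2 rose and 2 fell (all-gene shares for each line as given above). The 2 that rose in SU-DHL-10 were IGHM, from 1 and 0 counts to 2 and 8, and IGHA1, from 8 and 14 to 25 and 32. In U-2932 IGHM fell by 1.29 ± 0.07, IGKC by 1.06 ± 0.06 and IGHG1 by 2.82 ± 0.14 (log2, adjusted p = 6.414e-17, 5.392e-16 and 1.103e-17). In the same libraries IGHV counts per 100 heavy chain constant counts went from 6.7 and 7.081 to 11.22 and 9.899, and IGKV counts per 100 IGKC counts from 78.88 and 81.69 to 94.49 and 92.64. In OCI-LY19 the IGHV ratio went the other way, from 2.546 and 2.369 to 1.36 and 1.315, and in OCI-LY3 from 1.924 and 2.215 to 1.563 and 1.56.

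Joining segments moved in opposite directions in different lines. In U-2932, 7 of 15 tested J and D segments rose and 1 fell, where 25.9% of all genes rose and 25% fell. The kappa joining segments IGKJ3 (135 and 156 counts, then 548 and 545; 1.57 ± 0.20), IGKJ4 (1.35 ± 0.20) and IGKJ5 (1.61 ± 0.20) were among those that rose, and IGKJ1, nearest to the V segments, changed by -0.24 ± 0.18 (adjusted p = 0.2818). IGHJ6 rose by 1.19 ± 0.17 and IGHJ4 by 1.08 ± 0.31. In OCI-LY19, 0 rose and 5 fell, all in the heavy chain, IGHJ4 by 2.27 ± 0.39, where 17.8% of all genes fell. In OCI-LY3, IGHJ6 and IGHJ3P fell, where 12.5% of all genes fell, and in SU-DHL-10 none of the 15 passed the threshold of edgeR's test.

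Of 9 tested genes of V(D)J recombination, 1 rose and 0 fell across lines, where 10% of all genes rose. It was LIG4 (0.64 ± 0.12, adjusted p = 0.00271), a ligase of end joining. In U-2932 6 rose and 1 fell, in OCI-LY19 5 rose and 1 fell, in OCI-LY3 1 rose and 1 fell, and in SU-DHL-10 0 rose and 1 fell (all-gene shares for each line as given above). RAG1, a recombinase subunit, had 0 and 0 counts in U-2932 at 0 h and 30 and 27 at 8 h (adjusted p = 3.467e-05), with at most 8 counts in any other library. RAG2, the other subunit, had 2 and 3 counts in U-2932 at 8 h and 0 in the other 14 libraries. Of 12 genes of somatic mutation and class switching, 2 rose and 2 fell across lines, where 10% of all genes rose and 8.09% fell. In U-2932 7 of them rose and 4 fell, where 25.9% of all genes rose and 25% fell.

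Of 22 transcription factors of the immunoglobulin loci, 3 rose and 6 fell across lines, where 10% of all genes rose and 8.09% fell. In U-2932 9 rose and 7 fell, in OCI-LY19 5 rose and 12 fell, in OCI-LY3 3 rose and 13 fell, and in SU-DHL-10 0 rose and 9 fell (all-gene shares for each line as given above). POU2AF1 fell in every line, by 0.25 ± 0.08 in U-2932, 0.82 ± 0.09 in OCI-LY19, 1.57 ± 0.09 in OCI-LY3 and 0.54 ± 0.08 in SU-DHL-10 (largest adjusted p = 0.01249). POU2F2 fell by 0.54 ± 0.06, 0.76 ± 0.06, 1.04 ± 0.06 and 0.20 ± 0.06 in the same order. SPI1 (PU.1, which binds light chain enhancers) and ID3, an inhibitor of E proteins, also fell in every line, by 0.71 ± 0.08 and 1.43 ± 0.23 across lines. Spike-in scaling was not run for these lists, so their changes too are against the typical gene.

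Of 9 receptor partners and surrogate light chain genes, 0 rose and 4 fell across lines (8.09% of all genes fell), among them CD79B, which signals beside surface antibody (-1.25 ± 0.11, adjusted p = 9.264e-06), and VPREB3 (-1.01 ± 0.12). VPREB1, a surrogate light chain gene that lies near IGLV5-52 in the RefSeq order, with other entries between them, had 3 and 11 counts, then 1 and 0 in OCI-LY3 (adjusted p = 0.01465) and 28 and 16, then 1 and 5 in OCI-LY19 (-2.96 ± 0.72, adjusted p = 0.001132), lower at 8 h in both. In U-2932 it gave 0.35 ± 0.63 (adjusted p = 0.6904). Of 10 genes of antibody secretion, 0 rose and 5 fell across lines (8.09% of all genes fell). They included JCHAIN, which links antibody polymers (-0.43 ± 0.10), and PRDM1, the plasma cell factor BLIMP1 (-1.17 ± 0.25). XBP1, another plasma cell factor, rose in OCI-LY19 by 1.19 ± 0.08 and fell in U-2932 by 0.52 ± 0.07.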

How the data were processed

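RNA was sequenced in 16 libraries, 2 per line and time. The authors deposited 1 table of raw counts by gene ID, which also holds 92 spike-in RNAs. Per the labels' protocols, poly(A) RNA was enriched and PCR duplicates were removed. Per the submitters' processing notes, the tools were HOMER, bedtools, MACS2, Bowtie2, Trimmomatic and DESeq2, and hg19 and GRCh38 are named as builds with no role, so no coordinates are printed. The aligner, the counting program, its use of strand and its handling of reads shared by near-identical segments are not given in the sources used here. Another 8 samples, of ATAC-seq, were not analysed here.

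Ensembl IDs were matched to symbols for 58207 of 58676 gene IDs, and rows with no gene name and spike-ins were kept out of library sizes. Gene type, length and order came from RefSeq (GRCh38.p14), which matched 177 of 185 segments. The members, the gene lists and the tests were chosen with earlier results of these data known.

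Counts were filtered with filterByExpr on the 8 groups, scaled by TMM and tested with the quasi-likelihood test of edgeR 4.0.16 under R 4.3.3 (limma 3.58.1), with 1 mean per group, or line and time for the change across lines. P-values were adjusted by Benjamini-Hochberg over 17327 genes (threshold 0.05). Standard errors are the absolute log2 change divided by the square root of F. CPM values are TMM-scaled. Shares were compared by exact permutation of times within lines with scipy 1.17.1. Fold bounds use a floor of 3 counts over a group, and 95% intervals are exact binomial ones that cover counting error only.

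Segments are named if they held at least 5% of their locus in a library of a line (at most 4 per locus and line, and only where the locus had at least 50 counts), or passed the threshold at 8 h at 1 CPM or more in the line (at most 5 in each direction). Others, such as IGKV5-2, IGLV11-55 and IGHV5-51, were named after their values were seen. In the lists, up to 4 genes with the smallest p-values across lines and a fixed set were named, and VPREB1, IGHG4, further J segments and COL1A1 were named after their values were seen.

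Alternatives were RLE scaling, no TMM, spike-in scaling, scaling without immunoglobulin genes, DESeq2 1.42.0, no or a stricter filter on low counts, a replicate block and leaving out each library of the lines compared. Leaving out each line, the low and high spike-in lines apart, and the log2 of the share were added after the data were seen. The pipeline was tested on simulated counts. A small number of items are not reported here.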

Additional observations from a re-analysis of the deposited data

Results flagged for a closer look

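The change at 8 h differed between the 4 lines in 8 segments by a test of the difference itself (edgeR's quasi-likelihood test with 3 degrees of freedom, adjusted over all genes), where 53.5% of all tested genes did. For IGLV6-57 the adjusted p was 1.99e-11, with log2 changes of 0.02 in U-2932, -3.77 in OCI-LY19, -3.01 in OCI-LY3 and -0.76 in SU-DHL-10. For IGHV5-78 it was 7.676e-07, with -0.44, -2.03, -2.00 and -0.64 in the same order. For IGKV3-20 it was 0.004061, and the segment had 1 count in all of SU-DHL-10, with -0.83 in U-2932, -0.80 in OCI-LY19 and -0.28 in OCI-LY3.

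The other 5 rested on low counts in at least 1 line. IGLVI-56 (adjusted p = 6.499e-05) went from 63 counts at 0 h to 1 at 8 h in OCI-LY19 and from 3 and 4 to 10 and 14 in U-2932. IGLV3-1 (adjusted p = 0.002192) went from 0 counts to 9 and 2 in OCI-LY19 and fell in U-2932 (-1.05). IGLV11-55 (adjusted p = 0.01127) had 17 counts at 0 h and 0 at 8 h in OCI-LY3. IGKV2-29 (adjusted p = 0.01566), a pseudogene, had 17 and 2 counts in OCI-LY3 and 13 and 0 in OCI-LY19, against a change of -0.42 in U-2932 that did not pass the threshold. IGKV2D-26 (adjusted p = 0.04326), also a pseudogene, had 21 and 0 counts in OCI-LY3 and 23 and 3 in OCI-LY19, and how reads were split between it and its copy IGKV2-26 is uncertain. The cause of these differences was not tested.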

How the results depend on the processing

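Of the named segments' results under all alternatives, 352 kept direction and call, 52 kept direction but not the call, and 1 turned. That 1 was IGHV4-39 in U-2932, at 0.0491 with spike-in scaling. Counts of called segments moved by over 1.5 times as follows. With DESeq2 they were 7 in OCI-LY19, 5 in OCI-LY3, 2 in SU-DHL-10, 0 for OCI-LY19 against OCI-LY3 and 25 for U-2932 against OCI-LY3. With spike-in scaling they were 0 in SU-DHL-10, 14 for the difference between lines and 27 for OCI-LY19 against OCI-LY3. SU-DHL-10 had 2 calls with RLE scaling, 0 with no TMM, 0 with no filter and 2 with the stricter filter. No filter gave 13 for the difference between lines and 14 across lines, and the stricter filter gave 5 for OCI-LY19 against OCI-LY3. Across lines, 4 were called without OCI-LY3, 11 without U-2932 and 3 in OCI-LY19 and U-2932 alone. For the alternatives the share of all genes called is not given, so their counts are a description.

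Leaving out 1 library of the lines compared gave 4 to 9 calls in U-2932 (4 without the first 0 h library), 8 to 9 in OCI-LY19, 4 to 8 in OCI-LY3 (4 without the second 0 h library), 0 to 2 in SU-DHL-10, 6 to 9 across lines and 1 to 3 for OCI-LY19 against OCI-LY3. It gave a lambda share difference of -8.188 to -5.713 (3 refits lost the call) and a leading IGLV share difference of -15.92 to -12.33.

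Same-numbered replicates did not visibly deviate together (r = -0.012 to 0.034). This cannot show whether the numbers mark a shared culture or day, since counting noise can hide a small shared effect. With a replicate block 4 segments were called across lines, and the lambda share difference of -6.95 had an exact p of 0.05469. The lambda share difference was -6.669 without pseudogenes and unmatched segments, -8.95 without SU-DHL-10, -3.257 without OCI-LY3 and -6.204 without OCI-LY19, none past 0.05. The leading IGHV share difference was 3.778 without pseudogenes and unmatched segments, -6.834 without OCI-LY3 and -6.183 without OCI-LY19. The leading IGKV share difference was 7.31 without OCI-LY3, 10.19 without OCI-LY19 and 16.75 without U-2932, where the smallest exact p that 2 lines allow is 0.05556. The leading IGLV share difference was -21.34 without U-2932. The cause of these shifts was not tested, other than that fewer lines leave fewer arrangements. Depth limits calls in segments under 10 counts, 129 of 185.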
